A study of Mus musculus with 8 samples.

Results

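The regions described here are stretches of open chromatin that were called in mouse lens fibers of E14.5 embryos and again of P0.5 newborns, and in the lens epithelium of neither. They were chosen by the peak calls themselves. All peaks of 4 pooled peak lists on chromosomes 1 to 19 and X were merged where they lay within 10 bp of each other, and a merged region was kept when it held a peak of both fiber lists and no peak of an epithelium list. This left 4507 of 185247 merged regions, or 2.43% of all merged regions.

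The data came from CD1 mice, an outbred strain, with no genetic change and no treatment in any group. Lens epithelium and lens fibers were separated by microdissection in embryos at E14.5 and in newborns at P0.5, and 2 ATAC-seq libraries were made in each of the 4 groups, 8 libraries in all. The deposited peak lists pool the 2 libraries of a group, so no value below has a spread between libraries and no test across libraries was possible. For fibers the lists held 123743 peaks (E14.5) and 62995 peaks (P0.5), and for epithelium 100003 and 58592. A microdissected sample holds many cells, and a region that is open in few cells cannot be told apart from one that is weakly open in all of them.

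In ATAC-seq, the transposase Tn5 inserts sequencing adaptors where DNA is free of nucleosomes, so that promoters, enhancers and insulators stand out as peaks. Lens epithelial cells near the equator leave the cell cycle and elongate into fiber cells, which fill with crystallins, build a specialised membrane and cytoskeleton and later lose their nuclei. Fibroblast growth factor signalling drives this step, and c-Maf, Prox1, Sox1 and Hsf4 are among the transcription factors that fiber cells need. A region that stays open in fibers from the embryo to the newborn is a candidate place for such control, although a peak alone does not show that a region acts on any gene.

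Short windows of 8 of the regions show what was searched. Each window holds the 200 bp centred on the strongest summit of a region, taken from GRCm38 (mm10, RefSeq) on the plus strand. For 7 genes of the lens lists, the window is that of the strongest region within 50 kb that held a Maf motif, and for Mip it is the strongest region with a Sox site. These genes were picked after their values were seen. Capitals mark the Maf motif TGCTGA and the Sox sites CATTGT and CTTTGT, each on either strand. In order, the windows are chr5:112312734-112312933 in an intron of Tpst2 near Crybb1, chr5:113069728-113069927 in an intron of Crybb2, chr14:57035751-57035950 in an exon of Gja3, chr5:24798894-24799093 outside gene bodies near Crygn, chr4:45997785-45997984 in an intron of Tdrd7, chr8:25521583-25521782 in an intron of Fgfr1, chr6:127094663-127094862 in an intron of Tigar near Ccnd2, and chr10:128233900-128234099 in an intron of Timeless next to Mip.
Crybb1: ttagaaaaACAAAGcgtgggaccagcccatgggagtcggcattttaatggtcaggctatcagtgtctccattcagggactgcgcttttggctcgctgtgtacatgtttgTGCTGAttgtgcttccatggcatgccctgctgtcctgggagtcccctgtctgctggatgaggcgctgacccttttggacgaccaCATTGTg
Crybb2: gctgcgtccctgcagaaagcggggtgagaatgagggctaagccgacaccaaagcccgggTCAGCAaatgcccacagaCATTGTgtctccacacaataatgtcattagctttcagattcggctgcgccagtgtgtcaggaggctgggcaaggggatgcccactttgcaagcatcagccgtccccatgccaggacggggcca
Gja3: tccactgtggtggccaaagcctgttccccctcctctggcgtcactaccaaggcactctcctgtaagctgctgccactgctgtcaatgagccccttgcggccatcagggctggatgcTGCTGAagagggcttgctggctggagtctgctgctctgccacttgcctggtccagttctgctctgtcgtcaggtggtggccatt
Crygn: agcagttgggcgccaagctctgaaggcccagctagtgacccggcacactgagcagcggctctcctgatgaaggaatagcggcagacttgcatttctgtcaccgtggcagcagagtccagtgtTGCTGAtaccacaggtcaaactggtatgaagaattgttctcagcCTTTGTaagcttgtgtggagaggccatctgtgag
Tdrd7: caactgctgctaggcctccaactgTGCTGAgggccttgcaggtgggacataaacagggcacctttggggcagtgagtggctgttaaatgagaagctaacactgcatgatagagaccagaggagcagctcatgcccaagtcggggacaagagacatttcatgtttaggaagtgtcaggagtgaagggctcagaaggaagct
Fgfr1: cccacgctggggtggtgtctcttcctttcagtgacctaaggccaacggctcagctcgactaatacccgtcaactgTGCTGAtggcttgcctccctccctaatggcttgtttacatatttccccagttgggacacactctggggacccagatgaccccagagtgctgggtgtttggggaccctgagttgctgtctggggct
Ccnd2: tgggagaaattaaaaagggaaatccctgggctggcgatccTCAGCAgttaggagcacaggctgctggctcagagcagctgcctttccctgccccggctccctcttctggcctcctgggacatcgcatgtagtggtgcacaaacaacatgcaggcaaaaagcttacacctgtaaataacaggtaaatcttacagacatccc
Mip: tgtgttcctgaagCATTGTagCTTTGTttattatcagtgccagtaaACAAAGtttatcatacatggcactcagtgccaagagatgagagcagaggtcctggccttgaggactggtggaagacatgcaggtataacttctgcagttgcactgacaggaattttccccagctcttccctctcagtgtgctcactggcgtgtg

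The windows near Crybb1, Crybb2 and Crygn hold both kinds of site. The window near Crybb1 has 1 Maf motif and 2 Sox sites, and that in Crybb2, 0.289 kb after its start, has 1 of each. The window beside Mip has 3 Sox sites and 0 Maf motifs. A match is a description of the letters in the window and is not evidence that a factor binds there.

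Few open regions of the fibers were shared by the stages and absent from epithelium. Of the 29556 merged regions that held a peak of both fiber lists, 15.2% had no epithelium peak (95% Wilson interval 14.8 to 15.7%), whereas 68.0% were called in all 4 lists. Another 4482 also held a peak of E14.5 epithelium alone and 461 a peak of P0.5 epithelium alone. Read from the other side, the 4507 regions were 7.66% of the E14.5 fiber regions without an epithelium peak and 16.1% of those at P0.5. Much larger numbers were fiber regions of 1 stage, 54305 at E14.5 only and 23423 at P0.5 only. The mirror set, regions called in epithelium at both stages and in neither fiber list, numbered 4219.

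These values follow from the choice of the regions and are given as a description. At the edge of the rule, the weakest peaks inside a region had a −log10 q of 1.35 at E14.5 and 1.33 at P0.5, and the nearest epithelium peak lay 13 bp from a region that was kept. Just outside it were 25049 regions that held both fiber peaks and also an epithelium peak. In 622 of these every epithelium peak had a q value of 0.001 or more, and the weakest such peak had a −log10 q of 1.62.

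The regions were of middling strength in both lists. Fold enrichment is the ratio that the authors' peak caller gave of the pileup at a summit over the background it modelled. It had a median of 4.15 in the E14.5 list (2.67 to 41.8). In the P0.5 list its median was 4.17 (3.24 to 12.0). Ranked within their own list, with the strongest peak first, the median region stood at 58.1% of the E14.5 list and 48.9% of the P0.5 list. Regions called in all 4 lists were far stronger, with median fold enrichments of 26.1 at E14.5 and 6.49 at P0.5. At E14.5 only 40 of the 4507 regions were in the top 10% of the list, and at P0.5 only 3 were. A q value under 0.001 was reached by 74.2% of the regions at E14.5, beside 80.5% of all peaks of that list, and by 35.3% at P0.5, beside 48.9%. At both stages 27.7% (1250 regions) reached it.

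The ranks of the regions in both lists are given as a description, since the choice required a call in each and left out regions with an epithelium peak, which were stronger in both lists when called in all 4. Spearman's rho between the fold enrichments at E14.5 and P0.5 was 0.112 over the 4507 regions, which share their 2 lists and are not independent samples. The values at P0.5 fell on only 14 different levels, so many ranks were tied, and 23 regions were in the top 20% of both lists. The plot of both ranks shows these levels as rows.

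**Figure D1:**
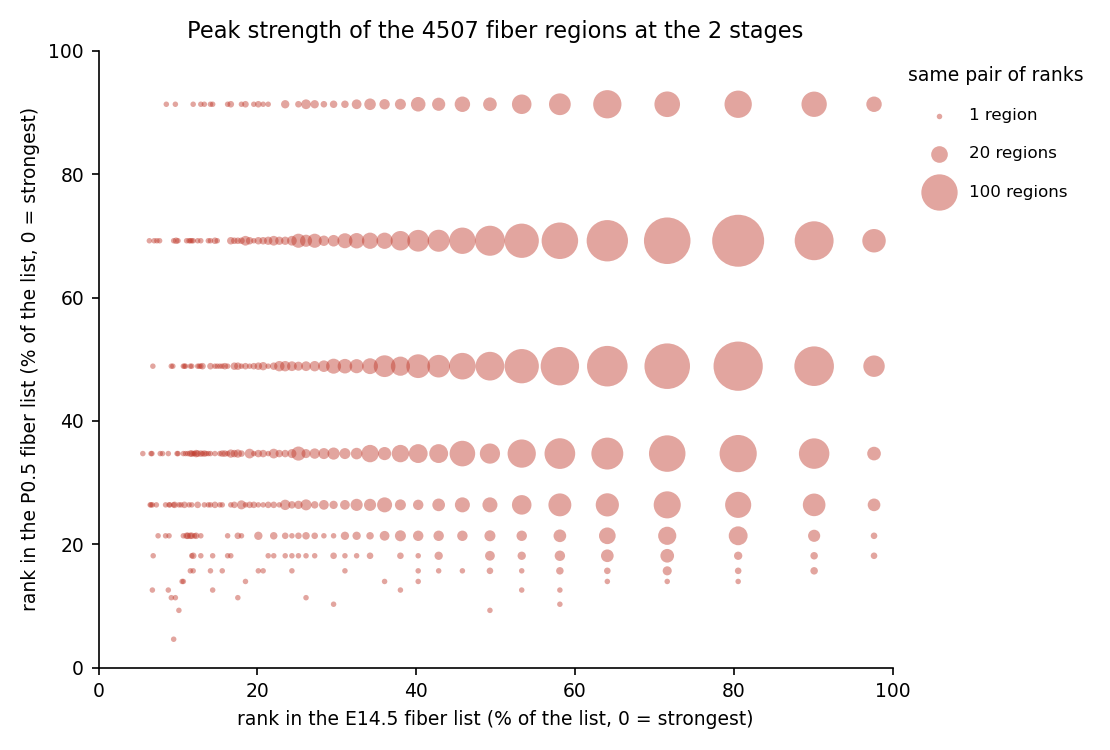
Each circle is a pair of ranks, in percent of the E14.5 fiber list (x axis) and of the P0.5 fiber list (y axis), with 0% the strongest peak and the area of a circle growing with the number of the 4507 regions that have this pair. The circles fill the middle and weak ranks, lie in rows because P0.5 fold enrichment took 14 values, and leave the corner of high rank in both lists nearly empty (23 regions in the top 20% of both).

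Peaks of the same region were wider at E14.5. The median peak was 297 bp wide at E14.5 and 167 bp at P0.5, beside medians of 298 and 185 bp over all peaks of these lists. The E14.5 peak was the wider in 79.4% of the regions, and the median of the ratio of widths was 1.71, or 3.098 with lists of equal length. The P0.5 peak lay wholly inside the E14.5 peak in 41.6%. The peaks of both stages overlapped in 98.1% of the regions, and their summits were a median of 95 bp apart, with 52.2% within 100 bp.

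Most of the strongest regions lay away from the listed lens genes. By the mean of both ranks the first was an intergenic region on chromosome 8 whose nearest start of a protein-coding gene was that of Myom2, 462 kb away, with fold enrichments of 23.4 at E14.5 and 12.0 at P0.5. Next came a region at the promoter of a non-coding transcript, 347 kb from the start of Nedd1, with 34.1 and 7.42, and a region in Cyp7b1, with 21.6 and 8.81 at E14.5 and P0.5. Tex264, Gdap2, Pomp, Osbpl9 and Timeless each had 1 of the 10 strongest regions in their gene body, and the remaining 2 lay outside gene bodies, with Celf4 and Rfpl4 as the nearest protein-coding starts. Tex264 is a receptor for autophagy of the endoplasmic reticulum and Pomp helps to assemble the proteasome, both of them processes by which cells break down their own parts. The region in Tex264 had fold enrichments of 24.3 at E14.5 and 7.88 at P0.5, and that in Pomp 20.8 and 6.95.

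Of the 5 widest regions, 3 lay at or near the lens genes Crygf, Bfsp1 and Cryba2. The widest measured 7736 bp over Crygf, a gamma crystallin gene, and was nearly all E14.5 signal: the E14.5 peak spanned all 7736 bp with a fold enrichment of 30.5, and the P0.5 peak was 144 bp wide with 5.56. A stretch of 6370 bp lay 42.4 kb along from the start of Bfsp1, beyond the end of the gene, with fold enrichments of 13.9 in the E14.5 list and 4.17 in the P0.5 list. The others among the 5 widest were 3331 bp at Cryba2, 3329 bp over Trnau1ap, nearest to the start of Rab42, and 3174 bp at the start of Timeless beside Mip, which was also among the 10 strongest. In each of the 5 the whole width came from the E14.5 peak.

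The regions lay mostly inside genes. A gene body held 67.4% of them (66.0 to 68.8%), against 55.0% of all merged regions, and a promoter (2 kb to either side of a transcript's start) 12.9% (11.9 to 13.9%) against 16.4% of all merged regions. A further 16.1% were within 50 kb of a gene and 3.62% farther away. Set against all other regions, the difference was 12.7 percentage points for gene bodies (95% Newcombe interval 11.3 to 14.1) and -3.64 for promoters (-4.60 to -2.61). All of these intervals cover counting error only and treat regions as independent.

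Compared with the sets most like them, the regions were closer to genes. Promoters made up 12.9% here, 9.64% of the regions of E14.5 fibers only, 8.88% of those of P0.5 fibers only and 7.63% of those open in epithelium at both stages. The difference to the latter was 5.24 points (3.97 to 6.50). The class counts any base of a region, and the median width was 373 bp here. It was 211, 146 and 243 bp in these other sets, in the same order. By summit alone the promoter share here was 11.3%, and it was not counted in the other sets. Regions called in all 4 lists were of another kind, with 63.9% at promoters. The median distance to the nearest transcription start site was 13.6 kb, against 22.1 kb for E14.5 fibers only, 17.4 kb for P0.5 fibers only and 34.3 kb for epithelium at both stages.

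The fiber and epithelium sets called at both stages differed in every location class. Gene bodies held 67.4% of the fiber and 48.1% of the epithelium regions, a difference of 19.3 points (17.3 to 21.3). Only 3.62% of the fiber regions were intergenic, against 18.8% of the epithelium regions, a difference of -15.2 points (-16.5 to -13.9). The summit fell in an exon in 16.6% of the fiber regions and in 5.38% of the epithelium regions, which differ by 11.2 points (9.89 to 12.5). Regions of P0.5 fibers only had nearly the same share of exonic summits, 16.4%, with a difference of 0.107 points (-1.05 to 1.31), whereas those of E14.5 fibers only had 7.66%. Among the fiber regions open at both stages, exonic summits made up 10.3% (8.50 to 12.5%) of the 901 with the strongest E14.5 peaks and 21.6% (19.1 to 24.4%) of the 902 with the weakest. By the strength of the P0.5 peak they ran the other way, from 20.1% (17.6 to 22.8%) of the strongest 901 to 13.2% (11.1 to 15.6%) of the weakest 902. Summits within 1 kb of a transcript end were also more common, with 6.43% against 2.89% in the epithelium set, a difference of 3.54 points (2.67 to 4.43). In P0.5 fibers only the share was 5.97% and in all 4 lists 5.91%, and both differences had intervals that include 0.

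**Figure D2:**
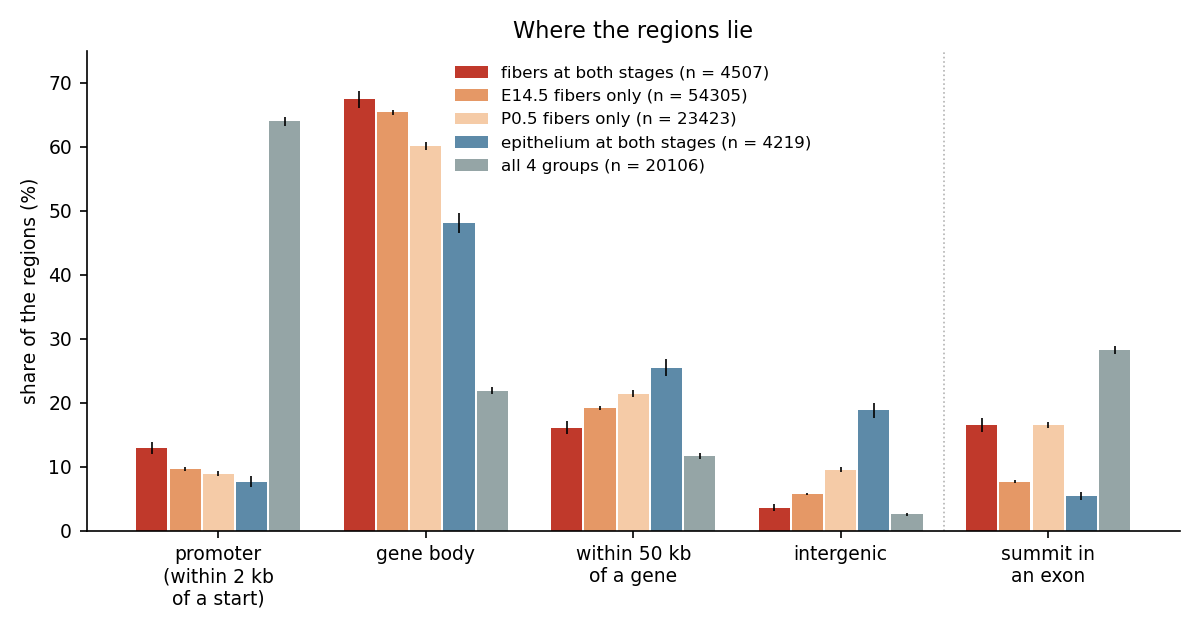
Bars give the share of regions (%) in each location class, and, right of the dotted line, with a summit in an exon, for 5 sets of merged regions whose numbers are in the key, and error bars are 95% Wilson intervals. The fiber regions open at both stages have the highest gene body bar, 67.4%, and the epithelium regions the highest intergenic bar, 18.8%.

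Chromosomes differed in how many regions they carried. Chromosome 11 had the highest density, with 29.8 regions per 10 Mb, and chromosome 7 followed with 25.8, while chromosome 3 had 8.31. As a share of the merged regions on a chromosome, the order was another, with 3.04% on chromosome 7, 2.91% on 15, 2.86% on 5, 2.76% on 4, 2.72% on 11 and 1.49% on 3. Chromosome X had 9 regions, 0.20% of the total, against 1.05% of all other regions. The share on X was 1.09% for E14.5 fibers only, 0.337% for P0.5 fibers only and 1.33% for epithelium at both stages. The difference to P0.5 fibers only was -0.138 points with an interval that includes 0 (-0.263 to 0.0538).

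The distance to epithelium peaks is a description, since the rule used the epithelium lists. The nearest epithelium peak was a median of 1567 bp away, it was within 500 bp in 21.0% and within 1 kb in 38.0% (36.6 to 39.4%), and within 10 kb in 88.5%. The shares within 1 kb were 29.2% for E14.5 fibers only and 25.8% for P0.5 fibers only, and the differences were 8.78 points (7.32 to 10.3) and 12.2 points (10.7 to 13.7). The merged regions also differed in width, with medians of 373 bp for the regions open at both stages, 211 bp for E14.5 fibers only and 146 bp for P0.5 fibers only.

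The regions also came in groups. The median gap to the next region of the set was 30.6 kb, and 30.2% had another within 10 kb. For epithelium regions open at both stages, of which there were nearly as many, the median gap was 108 kb and the share 12.0%. The densest group had 11 regions in 48.7 kb on chromosome 15 over Mafa, Rhpn1 and Zc3h3, where Mafa is a large Maf factor. The next had 10 in about 50 kb over Kdm4b and Ptprs, and the third 9 in 29.9 kb at Mip and Timeless. Groups of 8 lay over Itpk1, over Fam222a and Trpv4, and over Atp11a. Of the 11 regions beside Mafa, 1 held a Maf motif.

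Sequence was not used in choosing the regions, so it can be compared between them and the rest. In all, 23 consensus motifs were searched on both strands of the 200 bp at the summit. The 23 motifs were not ranked at the P0.5 summits. At the strongest summit, the Maf motif was the one with the greatest excess over all other regions. It was in 1300 regions, 28.8% (27.5 to 30.2%), beside 23.1% of all merged regions. The difference to all other regions was 5.86 points (4.54 to 7.21). Its size moved with the processing, to 2.60 points at the P0.5 summits and 10.1 points with q under 0.001 at both stages. It was 12.7 over whole regions and 17.1 with lists of equal length. Whole regions are of unequal length, with medians of 373 bp here and 211 bp for E14.5 fibers only. The medians were 146 bp for P0.5 fibers only, 243 bp for epithelium at both stages and 1177 bp for all 4 lists. Large and small Maf proteins bind Maf sites as dimers, and c-Maf turns on crystallin genes in fiber cells. The motif TGCTGA is 1 arm of such a site and can share its last letters with the first of the AP-1 and Meis motifs.

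The Maf motif was less common in the epithelium set. It was in 19.4% of the regions open in epithelium at both stages, a difference of 9.48 points (7.69 to 11.3), and in 20.01% of those of P0.5 fibers only, a difference of 8.84 points (7.44 to 10.3). The window of the regions lay at the stronger of both summits, which was the E14.5 summit in 63.1%, and at their P0.5 summits the difference to P0.5 fibers only was 5.58 points (4.22 to 6.97). Regions of E14.5 fibers only came close, at 27.0%, a difference of 1.87 points (0.515 to 3.26). At least 2 Maf motifs were in 4.75% of the fiber regions open at both stages and in 2.01% of both the P0.5 fiber and the epithelium set, but in 4.37% of E14.5 fibers only, a difference of 0.378 points (-0.231 to 1.06). The longer Maf response element, a full palindrome, was in 1.22% of the regions, 1.02% of those of E14.5 fibers only, 0.435% of those of P0.5 fibers only and 0.498% of the epithelium set. The difference to epithelium was 0.723 points (0.338 to 1.13), and that to E14.5 fibers only had an interval that includes 0.

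Maf motifs gathered at the summit. Per 50 bp, 10.03% of the regions held the middle of a Maf motif within 50 bp of the summit. Beyond 300 bp the share was 4.55%, a ratio of 2.20. The ratio was 2.17 for E14.5 fibers only, 1.29 for P0.5 fibers only and 1.53 for epithelium at both stages. The excess held outside promoters, where the shares were 29.6% and 24.4%. It held in each class of GC content with more than 10 of the regions: at 40 to 50% GC the difference was 7.49 points (3.72 to 11.5), at 50 to 60% 5.45 points (3.88 to 7.07) and above 60% 7.29 points (4.32 to 10.6). Below 40% GC there were only 7 regions. By place, the share was 24.0% in promoters, 29.0% in gene bodies, 29.8% within 50 kb and 39.3% (32.1 to 46.9%) of the 163 intergenic regions. With the summit of the P0.5 peak in place of the strongest one, the excess was 2.60 points (1.33 to 3.90).

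Maf motifs were tied to the strength of the E14.5 peak. At the E14.5 summit, 59.6% (53.0 to 65.8%) of the 225 regions in the top 20% of the E14.5 list held one, 45.6% of those from 20 to 40%, and 22.3% (19.99 to 24.8%) of those in the last 20%. At the P0.5 summit and by rank in the P0.5 list, the shares ran from 30.0% (22.8 to 38.4%) in the top 20% to 22.5% (18.8 to 26.7%) in the last. Regions of P0.5 fibers only were at 19.4% to 20.6% in these classes, and the difference was 10.5 points (1.67 to 19.9) in the first and 2.47 points (-1.49 to 6.88) in the last. Regions of E14.5 fibers only followed the same course at like ranks, with 54.5% in the top 20% and 21.5% in the last. The regions open at both stages exceeded them from 20 to 40%, by 5.26 points (1.46 to 9.10), and were below them from 40 to 60%, by -3.69 points (-6.07 to -1.18). In the other 3 classes the interval included 0.

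**Figure D3:**
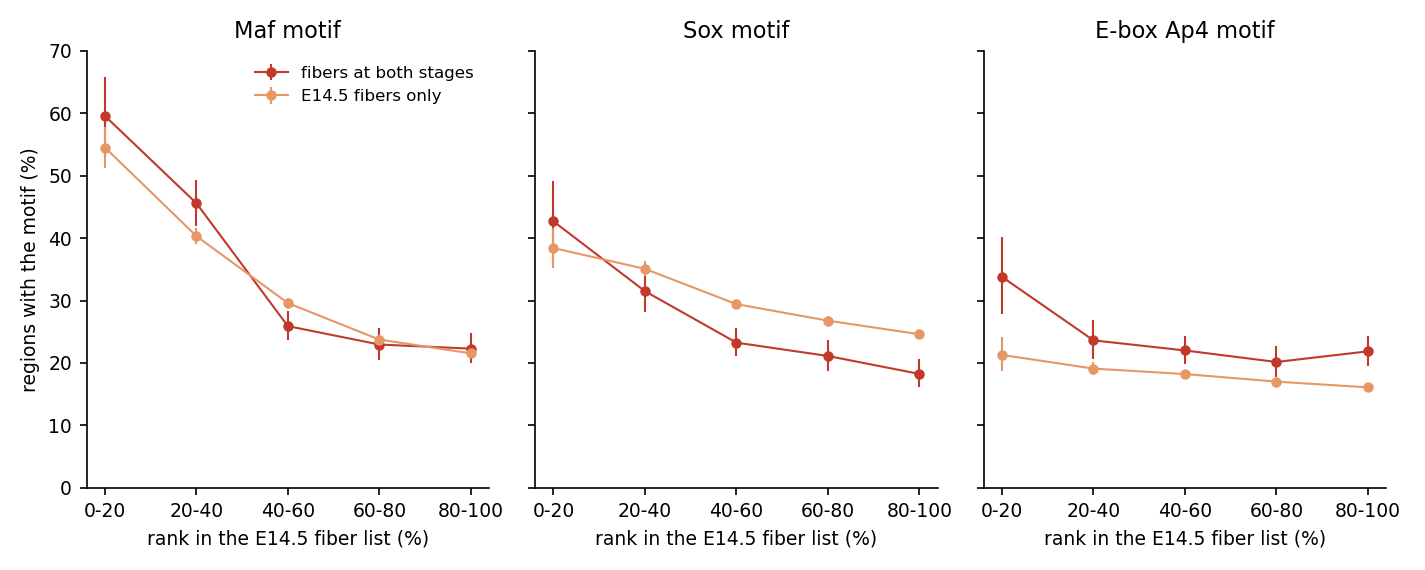
Shares of regions (%) with the Maf motif, the Sox site and the Ap4 E-box in 200 bp at the E14.5 summit, by rank in the E14.5 fiber list in steps of 20% with the strongest first, for fiber regions open at both stages and regions of E14.5 fibers only, with 95% Wilson intervals. The Maf curves fall together from 59.6% and 54.5%, the Sox curve of the regions open at both stages lies below the other from a rank of 20% on, with intervals of the difference below 0 from 40% on, and their Ap4 curve lies above the other at every rank.

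The E-box CAGCTG, bound by Ap4 and other basic helix-loop-helix proteins, was in 1000 regions, 22.2% (21.0 to 23.4%), beside 18.2% of all merged regions. The difference was 4.09 points (2.89 to 5.34) to all other regions, 4.86 (3.62 to 6.13) to E14.5 fibers only, 4.82 (3.54 to 6.15) to P0.5 fibers only and 2.40 (0.686 to 4.10) to epithelium at both stages. By GC content, the difference to epithelium was 2.32 points at 40 to 50%, -1.31 at 50 to 60% and -1.02 above 60%, each with an interval that includes 0. To E14.5 fibers only it was 3.66 (0.713 to 7.06), 2.301 (0.832 to 3.83) and 0.0543 (-3.59 to 3.89) in these classes. Within all 5 rank classes of the E14.5 list its share was higher than in E14.5 fibers only, from 12.5 points (5.99 to 19.4) in the top class to 3.14 points (0.728 to 5.77) from 60 to 80%. By rank in the P0.5 list, the difference to P0.5 fibers only was 5.05 points (2.69 to 7.51) from 20 to 40% and 4.16 (1.85 to 6.63) from 60 to 80%, and in the other 3 classes its interval includes 0. It also gathered at the summit, with a ratio of centre to flank of 1.93. The ratio was 1.90 for E14.5 fibers only, 1.48 for P0.5 fibers only and 2.31 for epithelium at both stages. Both the Maf motif and the Ap4 E-box were in 6.59% of the regions and in 4.51% of all others, a difference of 2.08 points (1.39 to 2.85).

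The Meis motif TGACAG was the third in excess, in 1009 regions, 22.4%, beside 19.2% of all merged regions. Its difference to all other regions was 3.24 points (2.04 to 4.50). Both the Maf and the Meis motif were in 8.10% of the regions and in 5.11% of all others, a difference of 2.99 points (2.22 to 3.82). How much of the Meis excess stands apart from the Maf motif was not tested. Meis proteins are homeodomain factors that act with Pax6 in the early lens. The Runx motif TGTGGT was in 16.9% of the regions, with a difference of 1.35 points (0.274 to 2.49).

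Sox sites were not in excess. They were in 1064 regions, 23.6% (22.4 to 24.9%), beside 24.8% of all merged regions, and the difference to all other regions was -1.20 points with an interval that includes 0 (-2.43 to 0.0783). This difference changed sign with the processing. It was 2.44 points (0.0364 to 4.98) when both peaks had to have a q value under 0.001, and 5.94 points (4.01 to 7.94) with lists of equal length. Sox sites were more common than in P0.5 fibers only, by 4.75 points (3.43 to 6.10), or by 2.02 points (0.750 to 3.33) at the P0.5 summits. They were less common than in E14.5 fibers only, by -4.28 points (-5.55 to -2.96), and in epithelium at both stages, by -6.68 points (-8.54 to -4.82, where the share was 30.3%). Within classes of GC content neither deficit was past its interval. To E14.5 fibers only the difference was 4.06 points (0.0639 to 8.22) at 40 to 50% GC, -0.192 at 50 to 60% and -1.70 above 60%, and to epithelium 0.656, -1.87 and -4.23, and the interval included 0 in all of these but the first. In the strongest 20% of the E14.5 list they were in 42.7% (36.4 to 49.2%) of the regions, and in the weakest in 18.2%. A Maf and a Sox site occurred together in 333 regions, 7.39%, against 5.97% of all others and 7.70% of E14.5 fibers only.

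The Tead motif GGAATG parted the fiber from the epithelium regions more than any other of the 23. It was in 482 fiber regions, 10.7% (9.83 to 11.6%), beside 13.7% of all merged regions, and in 29.9% (28.6 to 31.3%) of those open in epithelium at both stages, a difference of -19.2 points (-20.9 to -17.6). Against all other merged regions the difference was -3.11 points (-3.99 to -2.16), but over whole regions it was 0.262 points, with an interval that includes 0 (-0.934 to 1.51). Tead proteins carry the signal of Yap and Taz, the effectors of the Hippo pathway. At the centre of the fiber regions the motif was hardly denser than in the flank, with a ratio of 1.17 against 3.45 in the epithelium set. Its shares in E14.5 fibers only, 11.4%, and in P0.5 fibers only, 11.1%, differed from the fiber regions open at both stages by intervals that include 0.

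Several other motifs were less common here than among all merged regions, though not always less common than in the single-stage fiber sets. CTCF, the insulator protein, had its core motif in 106 regions, 2.35%, beside 4.72% of all merged regions. The Nfat motif GGAAAA was in 9.32% beside 12.2% of all merged regions, the Gata motif AGATAA in 4.64% beside 6.17%, and the heat shock factor motif (GAA and TTC with 2 bases between) in 128 regions, 2.84%, beside 3.93%. In P0.5 fibers only the shares were 1.44% for CTCF, 9.14% for Nfat and 4.70% for Gata, and in E14.5 fibers only CTCF stood at 2.55%. Hsf4 is the heat shock factor of fiber cells, and a lack of matches to these letters says nothing of where it binds. The AP-1 motif TGANTCA, at 6.35%, the AP-2 motif (GCC and GGC around 3 bases), at 11.1%, and the Myc E-box CACGTG, at 4.86%, differed from all other regions by intervals that include 0. The AP-2 motif was more common than in E14.5 fibers only, by 3.88 points (2.97 to 4.85), and less common than in epithelium at both stages (-1.94 points, -3.32 to -0.576). The difference to all other regions also had an interval that includes 0 for the T-box motif AGGTGT, at 9.87%, which was more common in P0.5 fibers only (14.7%, a difference of -4.78 points, -5.73 to -3.77). The Ets motif CCGGAAG, the Pitx motif TAATCC and the homeobox motif TAATTA were in 1.55%, 4.53% and 1.24% of the regions, and each was less common than in all other regions. The forkhead motif TGTTTAC and the Pax motif TTCACGC were in 1.84% and 0.555%, with intervals that include 0, and the NF1 and Rxr motifs in 1 and 2 regions. The GC box GGGCGG, frequent in promoters, had the greatest deficit against all other regions, -5.04 points (-5.70 to -4.30).

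GC content and repeats were compared over the same 200 bp. The median GC content was 55.0%, against 51.0% for E14.5 fibers only, 54.5% for P0.5 fibers only, 50.5% for epithelium at both stages and 63.5% for regions of all 4 lists. At least 50% of the window was annotated repeat in 1.93% of the regions, against 4.04% for E14.5 fibers only and 5.51% for P0.5 fibers only, differences of -2.11 points (-2.51 to -1.63) and -3.58 points (-4.05 to -3.05). The share was 1.47% for epithelium at both stages, a difference of 0.461 points with an interval that includes 0 (-0.0864 to 1.01), and 0.229% for regions of all 4 lists.

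**Figure D4:**
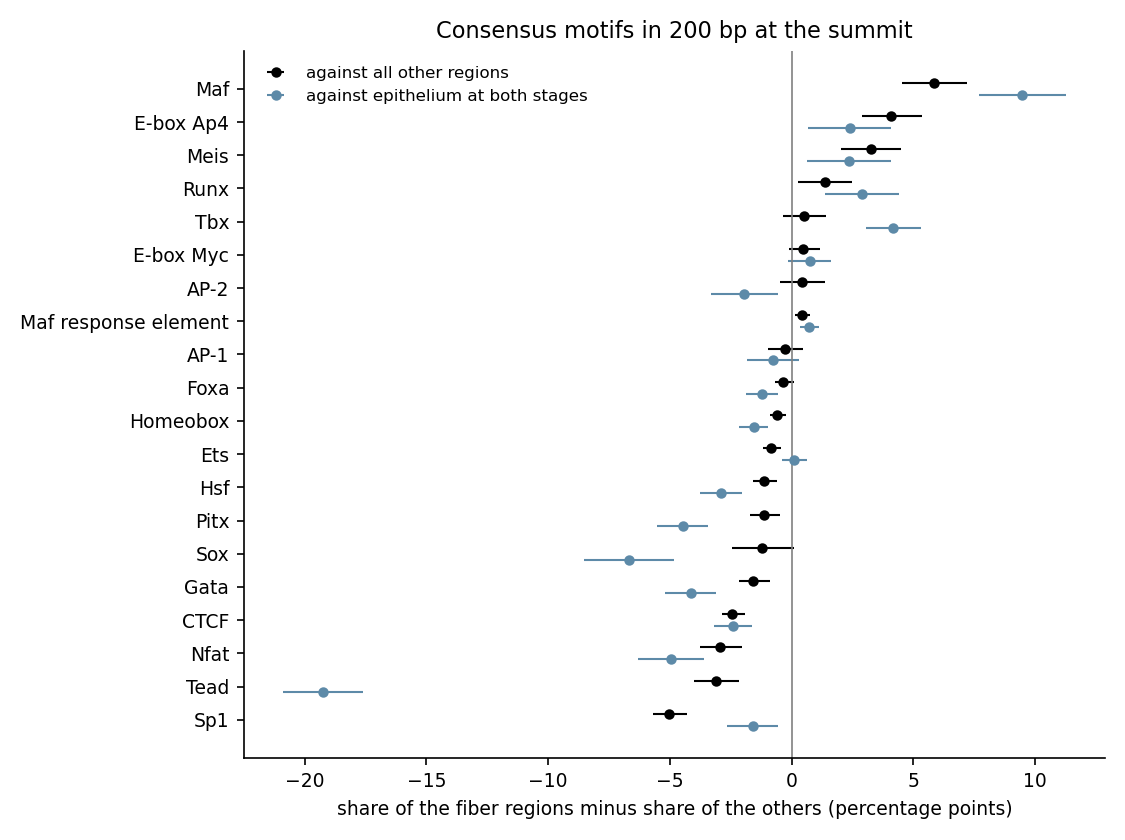
Points give the share of the 4507 fiber regions with a motif minus the share in all other regions (black) or in regions open in epithelium at both stages (blue), in percentage points, with 95% Newcombe intervals, for the motifs found in at least 1% of the fiber regions. Maf has the greatest excess in both comparisons, 5.86 and 9.48 points, and Tead the greatest deficit against epithelium, -19.2 points.

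Genes that build the fiber membrane and cytoskeleton had such regions close by. Of 18 genes in this list, 14 had 1 or more within 50 kb (77.8%), beside 30.4% of 20923 protein-coding genes, and 11 had one over the promoter or gene body (61.1%), beside 11.5% of them. Counting only regions with a q value under 0.001 at both stages, the number was 6 of 18, beside 12.4% of protein-coding genes. The median length of the listed genes was 28.4 kb and that of all protein-coding genes 16.8 kb, and the part of length in the counts was not tested. Epithelium regions open at both stages were within 50 kb of 4 of the 18 genes (22.2%), beside 21.9% of all protein-coding genes. Cdh2, Efna5, Lgsn and Lctl had none of the fiber regions.

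Mip, the aquaporin of the fiber cell membrane, had 9 regions within 50 kb and 0 over its own promoter or body. Its own domain ran as a single E14.5 fiber peak across the gene but also held peaks of both epithelium lists, and so was not counted. Of the 9, 1 lay at -4.83 kb from the start of Mip and 8 lay over Timeless, the gene that follows it. The strongest, at 8.19 kb, was in the top 10.7% of the E14.5 list with a fold enrichment of 20.5 and in the top 14% of the P0.5 list with 6.95. The other 8 had E14.5 values of 3.26 to 5.93 and P0.5 values of 3.24 to 4.63, so that the run was made of 1 strong region and 8 ordinary ones.

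The beaded filament genes had several regions each. Bfsp1, whose protein filensin pairs with Bfsp2 (phakinin) to form the filament found only in lens fibers, had 7 regions within 50 kb, of which 4 lay in the gene. Those 4 had E14.5 fold enrichments of 5.93 to 10.7 and P0.5 fold enrichments of 3.71 to 5.56. Others of the 7 lay over the neighbouring gene Pcsk2. Bfsp1 also held 20 regions of E14.5 fibers only. Bfsp2 had 5 regions, 3 of them in the gene and 2 over Tmem108, the highest E14.5 value being 8.60, with 3.71 at P0.5. Bfsp2 also held 26 regions of E14.5 fibers only.

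**Figure D5:**
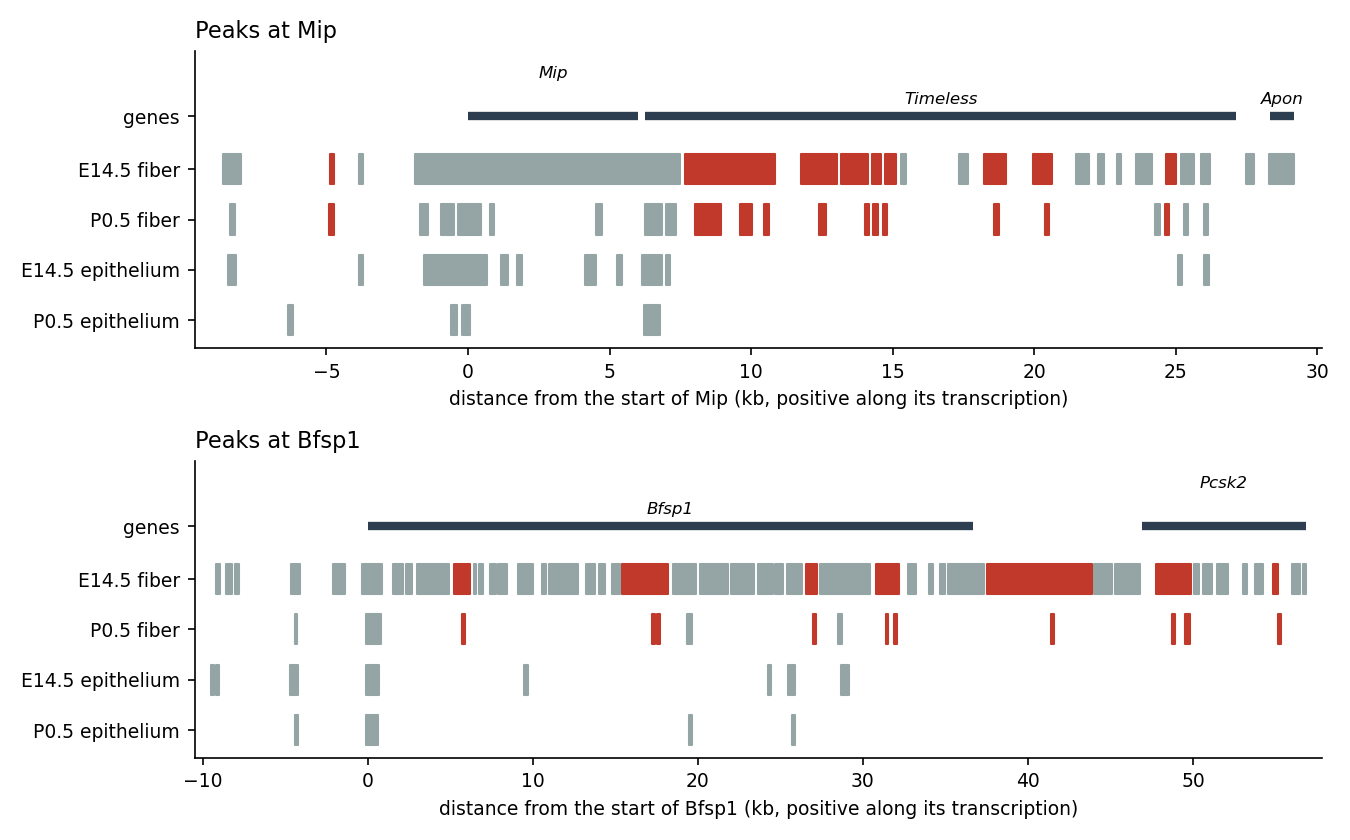
Bars are peaks of the 4 pooled lists around Mip and Bfsp1, by distance in kb from the start of the gene along its transcription, and dark lines are genes. Red bars belong to fiber regions open at both stages and grey bars to other merged regions. At Mip there are 9 red regions, which lie over Timeless, the gene that follows, except for the leftmost, before the start of Mip. At Bfsp1 the 7 red regions lie in the gene, in the space beyond its end and in Pcsk2.

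Other members of the list were less crowded. Gja3, a connexin of fiber gap junctions, had 2 regions. The region in the exon of Gja3 had fold enrichments of 5.93 at E14.5 and 5.10 at P0.5. Lim2, an abundant fiber membrane protein, had 3 regions, of which that at 7.59 kb, over Nkg7, had 12.2 at E14.5 and 7.88 at P0.5, and that at -1.56 kb, in its promoter, had 7.41 and 8.34. The latter stood in the top 10.3% of the P0.5 list and in the top 29.6% of the E14.5 list. Tmod1, which caps actin filaments, had 4 regions, 3 of which lay over its neighbour Tdrd7. Ank2 had 3, Sptan1, Sptbn1 and Grifin 2 each, and Vim, Epha2 and Slc2a1 1 each.

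Of 16 crystallin genes, 7 had a region within 50 kb (43.8%), beside 30.4% of protein-coding genes. Over the promoter or gene body 4 had one (25%), beside 11.5%, namely Cryba2, Cryba4, Crybb2 and Crygf. Crybb1 had 4 within 50 kb, Cryba4 3, and Cryba2, Crybb2, Crybb3 and Crygn 2 each. Neighbours share these counts, since 3 of the regions are within 50 kb of both Crybb1 and Cryba4, and Crybb2 and Crybb3 have the same 2. The 9 crystallins without a region were Cryaa, Cryab, Cryba1, Cryga, Crygb, Crygc, Crygd, Cryge and Crygs. Each of these but Crygs had 1 merged region of both fiber lists over its promoter or body that also held an epithelium peak. Epithelium regions open at both stages were within 50 kb of 0 of the 16, beside 21.9% of protein-coding genes.

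The region at the start of Crybb2 was one of the stronger members in both lists. Its fold enrichment was 8.30 at E14.5, rank 26.1%, and 5.10 at P0.5, rank 26.4%. The region near Crybb1 in an intron of Tpst2 had 10.7 at E14.5 and 4.63 at P0.5. At Cryba2 the E14.5 fold enrichment of 35.0 contrasted with 4.63 at P0.5.

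Of 13 fiber transcription factors 5 had a region within 50 kb (38.5%, beside 30.4% of protein-coding genes), namely Maf, Mafg, Mafk, Sox1 and Hsf4, and 2 had one over the promoter or body, Mafk and Hsf4. Prox1, the homeobox factor of fiber elongation, had 0, while 12 merged regions of both fiber lists over its promoter or body also held an epithelium peak. Of 13 epithelium transcription factors 5 had one as well, Foxe3, Sox2, Tead1, Tead3 and Tead4. The region over Hsf4 had fold enrichments of 5.34 at E14.5 and 4.17 at P0.5, and the strongest at Tead1 8.60 and 4.63.

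In the FGF and ERK list, 6 of 14 genes had a region within 50 kb (42.9%, beside 30.4% of protein-coding genes), and the same 6 had one over the promoter or body (beside 11.5%). These were the receptors Fgfr1, Fgfr2 and Fgfr3, the decoy receptor Fgfrl1, the inhibitor Spred2 and the ETS factor Etv5. Within 50 kb Fgfrl1 had 7, of which 1 lay over its own promoter or body and others over its neighbours Idua and Dgkq, and Fgfr3 had 6, of which 3 lay over its own. The other 8 genes of the list had 0, namely Frs2, Spry1, Spry2, Spry4, Spred1, Dusp6, Etv1 and Etv4. Of the Notch list, 4 of 9 genes had one within 50 kb (44.4%), with 5 at Notch1, 2 at the target gene Hey1 and 1 each at Notch3 and Maml1. Of the BMP and TGF-beta list, 5 of 12 had one (41.7%), Bmp7, Bmpr1a, Smad5, Tgfb2 and Nog, so that both shares stand beside the same 30.4%. Epithelium regions open at both stages were within 50 kb of 5 of the 14 FGF and ERK genes (35.7%), beside 21.9% of protein-coding genes. For the Notch list and for the BMP and TGF-beta list that share was 33.3%.

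Genes of cell cycle exit had 3 of 10 (30.0%), near the background. These were the inhibitors Cdkn1a and Cdkn1c with 2 each and cyclin Ccnd2 with 3, of which the strongest had 9.19 at E14.5 and 5.56 at P0.5. Of 12 genes of organelle loss and RNA control, 3 had a region (25%), Plaat3, Celf1 and Tdrd7. Tdrd7, an RNA granule protein whose loss causes cataract, had 6 regions, 5 of them over its promoter or body. Their fold enrichments were 4.15 to 5.63 in the E14.5 list and 3.71 to 4.63 in that of P0.5. It also held 52 regions of E14.5 fibers only.

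The label of the set was also set beside markers of cell types. Of 8 lens fiber markers, 6 had a region within 50 kb (75%), the exceptions being Cryga and Crygd. Over the promoter or gene body 4 of the 8 had one, beside 11.5% of protein-coding genes. All 8 are also in the crystallin or fiber membrane lists, so they are no separate check. Of 6 lens epithelium markers, 1 had a region within 50 kb, Foxe3, while epithelium regions open at both stages were near 5 of the 6. Beside these counts stand the 30.4% of all protein-coding genes that had a region this near. Endothelial markers had 0 of 6. Blood cell markers had 2 of 6, Spi1 with 5 regions and Csf1r with 1, retina 1 of 6, Otx2, surface ectoderm and cornea 1 of 5, Krt15, and mesenchyme 2 of 6, Pdgfrb and Col1a1. The share for blood and for mesenchyme, 33.3%, is near that of all genes. The other 4 blood cell markers, Ptprc, Gata1, Tal1 and Klf1, had 0. The 5 regions near Spi1 had fold enrichments of 3.26 to 4.45 at E14.5, and 1 of them is also near Celf1. The region in Csf1r is also counted for Pdgfrb. Whether other cells add to these calls was not tested.

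The genes with the most regions were mostly long genes. Hdac4, a histone deacetylase, had 14 over its promoter or body of 252 kb, Itpk1, an inositol phosphate kinase, 13 over 136 kb, and Kdm4b, a histone demethylase, 12 over 77.7 kb. Cdh4, Galnt2 and Shb had 11 each, Atp11a, Grid1 and Prkag2 10 each, and Dab2ip 9. Per length, Kdm4b was the densest of these 10, with 15.4 regions per 100 kb, and Grid1 the sparsest, with 1.31. Within 50 kb, Kdm4b had 17, Hdac4, Itpk1 and Zc3h3 15 each and Ptprs 13. In Hdac4, 85 merged regions of E14.5 fibers only lay beside the 14, and in Itpk1 53 beside the 13, whereas Kdm4b had 12 beside its 12. Over the genome there were 54305 regions of E14.5 fibers only beside the 4507.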

How the data were processed

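ATAC-seq libraries of microdissected lens epithelium and fibers (E14.5, P0.5) numbered 2 in each of 4 groups. By the submitters' processing notes, the authors used Trim Galore 0.4.1, Bowtie2 2.3.3.1, SAMtools 1.2, Picard 2.1.1, MACS2 2.1 and the build mm10. Peaks were called at a q value of 0.05, and each list holds the pooled peaks of a group. The authors' fold enrichment is a ratio of the pileup at a summit over the background level that MACS2 modelled. The −log10 p and −log10 q values in the deposited lists come from MACS2. The peak score, as deposited by the authors, is a whole number made from the q value and was not used. The pooled lists give no values and no depth per library. Every list was assigned to a group, and 0 columns stayed unassigned.

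Peaks on chromosomes 1 to 19 and X were merged at 10 bp with bedtools 2.31.1 and grouped by the lists they came from (python 3.11.15, pandas 2.3.3, numpy 2.4.6). A region took the first class that any base of it touched, from promoter (2 kb around a start) to gene body, 50 kb of flank and intergenic DNA, with 45756 curated RefSeq transcripts of 26180 genes on GRCm38. Motifs were searched in 200 bp around the summit with the highest −log10 p, read with pysam 0.24.0. Figures were drawn with matplotlib 3.10.9. Shares carry 95% Wilson intervals and differences 95% Newcombe intervals, which cover counting error only. The steps were tested on simulated data.

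The members, gene lists, motifs and comparisons were chosen with earlier results of these data known. Named genes were those of 9 pathway and 7 marker lists, those at the 10 members of best mean rank, the 10 with the most members over promoter or body and the 5 with the most within 50 kb, and those at the 5 widest members and the densest clusters. The alternatives were a q value under 0.001 in both fiber lists, merge distances of 0 and 100 bp, no epithelium peak within 500 bp, lists of equal length, an overlap of 50%, and other promoters, transcripts, windows, summits, GC classes and reaches. No blacklist of genome regions was used here. Some listed genes are not reported here by name.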

Additional observations from a re-analysis of the deposited data

How the results depend on the processing

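No paired analysis was possible because the deposited lists pool the libraries of each group, so no value of a single library could be used here. Of 66 alternative settings over 8 results, 45 changed no call or direction and, for counts, ratios and the promoter share, stayed within 1.5 times or the interval. The Maf difference kept its direction in all 11 but moved in size, from 2.60 points with the P0.5 summit to 10.1 with q under 0.001, 12.7 over whole regions and 17.1 with lists of equal length. The number of regions was 1250 with q under 0.001, 2127 with lists of equal length and 1459 with an overlap of 50%. The promoter share was 14.3%, 14.7% and 10.1% with q under 0.001, with equal lists and without an epithelium peak within 500 bp, 6.23% with promoters of 1 kb, 19.8% with predicted transcripts and 11.3% by summit. The Sox difference turned positive, to 2.44 points with q under 0.001, 5.94 with equal lists, 4.97 over whole regions and 3.11 at 40 to 50% GC. It was negative with an interval below 0 with a merge distance of 100 bp (-1.53), a window of 400 bp (-2.20), the P0.5 summit (-3.93) and outside promoters (-2.15). The Tead difference was 0.262 over whole regions (-0.934 to 1.51). Whole regions differ in length between the sets. With q under 0.001, 6 fiber membrane and cytoskeleton genes had a region within 50 kb. Over promoter or body alone, 4 crystallins had one, and with equal lists the median width ratio was 3.098. The cause of these changes was not tested. Pooled lists give no depth and no spread between libraries, so a missing call does not show closed chromatin.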
